A study of Rattus norvegicus with 12 samples.

Results

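The genes described here encode the proteasome and the factors that assemble or cap it. They were taken from the deposited gene table by symbol and biotype, as protein-coding genes whose names begin with Psma, Psmb, Psmc, Psmd, Psme, Psmf or Psmg followed by a digit, without the interferon-inducible subunits Psmb8, Psmb9 and Psmb10. This rule found 45 of the 32545 genes in the table. By role, 44 of them belong to the proteasome, and Psmc3ip, which encodes a partner of the recombinases of meiosis, was matched by its name only. Activator gene Psme3 was not found under that symbol and was not analysed here.

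Myocardium of the left ventricular (LV) and right ventricular (RV) free wall of neonatal Sprague–Dawley (SD) rats was profiled by RNA-seq on postnatal day 7. Volume overload (VO) was produced on postnatal day 1 by an opening between the abdominal aorta and the inferior vena cava, which loads both ventricles, and the control rats had a sham operation on the same day. Each of the 4 groups, LV and RV after sham and LV and RV after VO, had 3 libraries. The labels do not say which LV and RV libraries came from the same heart or whether tissue was pooled, so the p values measure the spread between these libraries, which may be partly technical. The reads on genes numbered 14121713 in the shallowest library and 16871371 in the deepest. All 8 ventricular cardiomyocyte markers were detected in every library, and their summed level lay between 17778 and 28341 FPKM (fragments mapped, scaled to gene length and library size). The summed level of 5 atrial markers was 4559 FPKM in VO RV replicate 2 against 250 and 311 FPKM in the other VO RV libraries, and 1065 FPKM in sham RV replicate 1 against 212 and 303 FPKM in the other sham RV libraries, so counts were also made without these 2 libraries. The same sum was 706 to 1156 FPKM in sham LV and 893 to 1729 FPKM in VO LV. Sham RV replicate 1 thus stood apart from the other sham RV libraries but lay within the range of the LV libraries.

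The proteasome is the main protease of the cytosol and nucleus and degrades proteins that carry ubiquitin chains. Its 20S core is a barrel of stacked rings of alpha subunits (Psma) and beta subunits (Psmb), and the proteolytic sites lie inside on the beta subunits Psmb5 (chymotrypsin-like), Psmb6 (caspase-like) and Psmb7 (trypsin-like). A 19S particle at the end of the barrel binds ubiquitin chains, removes them and threads the substrate into the core. Its base holds the ATPases (Psmc) and the large scaffold subunits Psmd1 and Psmd2, and its lid holds further Psmd subunits, among them the deubiquitinase Psmd14. In the heart, the proteasome is known for the turnover of sarcomere proteins and for the removal of damaged proteins under load. Coordinated expression of the subunit genes is known to depend on the transcription factor Nfe2l1 (also called NRF1), which binds antioxidant response elements in their promoters.

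Promoter sequences were found in the RefSeq table (GRCr8) for 40 of the 45 genes. The 120 bases before the annotated start of the 3 catalytic subunit genes and of the activator gene Psme4 are shown, since the comparisons below turn on Psmb7 and Psme4 and since Psmb5 and Psmb6 are the genes that share the catalytic role of Psmb7. Capitals mark TGACNNNGC (the core of the antioxidant response element), CCGGAAG (the core of an ETS factor site) and CCAAT, on either strand and lying wholly in the window. The motifs were chosen after the sequences had been seen. The windows are chr15:32047380-32047499 (minus strand) for Psmb5, chr10:55737768-55737887 (plus strand) for Psmb6, chr3:42827471-42827590 (minus strand) for Psmb7 and chr14:108706523-108706642 (plus strand) for Psme4, each written 5′ to 3′ along the gene.
Psmb5: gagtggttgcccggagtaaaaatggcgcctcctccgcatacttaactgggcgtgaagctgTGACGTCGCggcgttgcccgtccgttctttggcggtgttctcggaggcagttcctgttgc
Psmb6: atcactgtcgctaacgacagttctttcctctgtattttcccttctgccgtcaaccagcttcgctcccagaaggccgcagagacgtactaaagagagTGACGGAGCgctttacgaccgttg
Psmb7: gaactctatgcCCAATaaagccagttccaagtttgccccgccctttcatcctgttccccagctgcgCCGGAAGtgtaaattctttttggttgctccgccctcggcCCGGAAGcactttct
Psme4: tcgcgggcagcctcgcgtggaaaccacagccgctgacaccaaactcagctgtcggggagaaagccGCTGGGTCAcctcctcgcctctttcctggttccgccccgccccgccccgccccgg

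TGACNNNGC began 60 bases before the start in Psmb5 and 24 bases before it in Psmb6, both on the gene's own strand, and it began 55 bases before the start on the opposite strand in Psme4. In Psmb7, TGACNNNGC was not found in the 300 bases of the table, while CCGGAAG was found at 54 and 15 bases before the start and CCAAT at 109 bases before it and, on the opposite strand and outside the window shown, at 250 bases before it. Psme4 held a CCGGAAG that begins 4 bases before the start and runs past it, so it is not in capitals. Over the 40 promoters, TGACNNNGC was present in 8 (20%) against 12.1% of all 33469 promoters of the same length in the table, and CCAAT was present in 19 (47.5%) against 37.5%. CCGGAAG was present in 15 (37.5%) against 8.75% of all promoters, and the GC box GGGCGG in 30 (75%) against 33.1%. The E-box CACGTG was present in 4 (10%) against 6.42%, and TATAAA in 4 (10%) against 14.2%. These shares describe the letters in the windows, and binding was not measured.

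The 45 genes lay on 17 chromosomes as the deposited table lists them, with 7 on chromosome 10, 6 each on chromosomes 3 and 15 and 5 on chromosome 1. The genome build of the table is not given in the sources used here, so its positions were not combined with those of GRCr8. Among the genes, 42 had a mean level of at least 0.5 FPKM over the 12 libraries and were tested, and the other 3 were listed at or near 0.

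**Figure D1:**
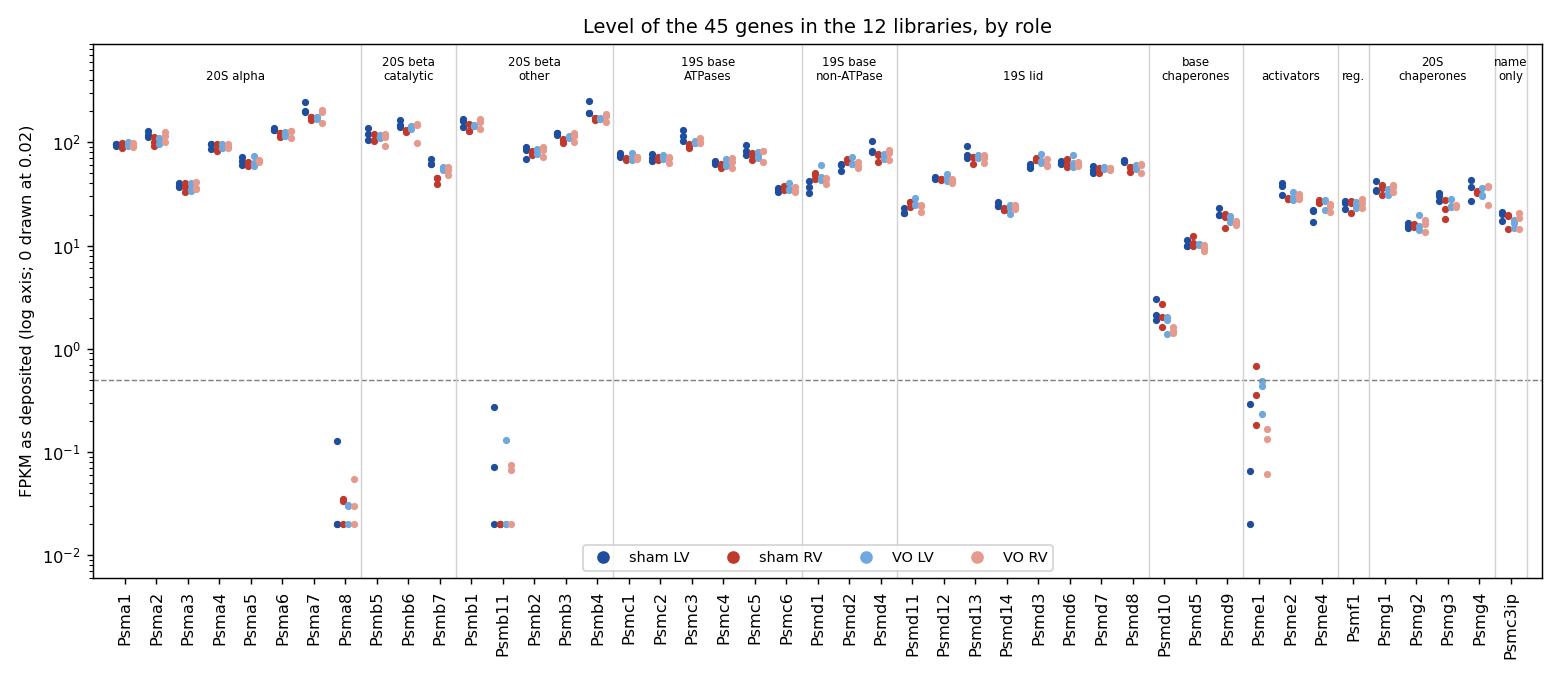
Level of each of the 45 genes in FPKM on a log axis, with 1 point per library coloured by group and 0 drawn at 0.02. The dashed line is the limit of 0.5 FPKM for testing, and reg. stands for the regulator Psmf1. The highest genes, Psma7 and Psmb4, belong to the 20S core, and Psma8, Psmb11 and Psme1 lay below the limit on average.

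Psma8, which replaces an alpha subunit in germ cells, was listed at 0 in 5 libraries and reached at most 0.128 FPKM, or 4 reads. Of 3 germ cell genes, Dazl was at 0 in every library, Ddx4 reached at most 0.111 FPKM and Sycp3 was at 3.47 to 6.31 FPKM. Psmb11, the beta subunit of the thymus proteasome, was listed at 0 in 7 libraries and reached at most 0.272 FPKM, also 4 reads, and the 3 thymic epithelium genes Prss16, Aire and Foxn1 summed to at most 0.138 FPKM.

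Psme1 and Psme2 encode the 2 subunits of the ring-shaped activator PA28, which opens the core without ATP. Their listed levels differed widely although the genes are neighbours on chromosome 15. Psme1 was listed at 0.0650, 0 and 0.289 FPKM in sham LV and 0.433, 0.482 and 0.234 in VO LV, and 0.182, 0.352 and 0.673 in sham RV and 0.134, 0.167 and 0.0608 in VO RV, which is at most 10 reads in a library. Psme2 was at 37.7, 40.2 and 30.6 FPKM in sham LV and 32.9, 27.4 and 29.2 in VO LV, and 29.2, 28.0 and 28.2 in sham RV and 29.7, 28.0 and 31.5 in VO RV. Psme1 was therefore listed near 0 in every group, while its partner was well measured. Whether the listed level of Psme1 reflects the gene model used for counting was not tested, so it is uncertain as a level in the myocardium.

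The alpha ring gene of highest level was Psma7, at 204, 245 and 196 FPKM in sham LV and 177, 176 and 169 in VO LV, and 175, 163 and 178 in sham RV and 197, 154 and 208 in VO RV. The lowest tested was Psma3, at 40.0, 37.0 and 37.7 FPKM in sham LV and 35.2, 34.1 and 40.6 in VO LV, and 36.7, 40.5 and 33.1 in sham RV and 41.4, 35.1 and 36.0 in VO RV. Subunits of the ring are built into it in equal numbers, but their listed levels were not equal. Psma3 is listed with a length of 3559 bases, the longest of the core, and its pseudogene LOC100361067 was at 0.235 to 1.66 FPKM, so reads shared with the copy are possible and its level is uncertain.

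Among the beta subunits without a proteolytic site, Psmb4 was highest, at 192, 252 and 193 FPKM in sham LV and 173, 169.6 and 169.6 in VO LV, and 173, 165 and 171 in sham RV and 181, 159 and 189 in VO RV. Psmb2 was the lowest tested, at 84.0, 68.9 and 90.4 FPKM in sham LV and 85.4, 77.2 and 84.9 in VO LV, and 75.9, 83.0 and 81.5 in sham RV and 84.7, 71.7 and 89.6 in VO RV. Sham LV replicate 2 was the highest library for Psmb4 and the lowest for Psmb2. The 3 libraries of sham LV therefore did not move together in these genes.

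The catalytic subunits had unequal levels. Psmb6 was at 141, 167 and 149 FPKM in sham LV and 143, 134 and 138 in VO LV, and 129, 127 and 133 in sham RV and 149.6, 98.3 and 147 in VO RV. Psmb5 was at 104, 137 and 121 FPKM in sham LV and 117, 113 and 110.5 in VO LV, and 105, 103 and 121 in sham RV and 113, 91.3 and 120.4 in VO RV. Psmb7 was lower than both in every library, at 62.0, 68.98 and 61.1 FPKM in sham LV and 55.9, 57.2 and 54.6 in VO LV, and 45.6, 44.8 and 39.8 in sham RV and 53.6, 48.7 and 58.1 in VO RV. In Psmb7 the sham LV libraries were the highest and the sham RV libraries the lowest, and the VO libraries of both ventricles lay between them. In Psmb5 and Psmb6 the lowest library was VO RV replicate 2.

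In the 19S base, the ATPase genes ranged from Psmc3 down to Psmc6. Psmc3 was at 114, 132 and 102 FPKM in sham LV and 97.9, 98.0 and 103 in VO LV, and 88.6, 97.5 and 93.0 in sham RV and 101, 97.7 and 109 in VO RV. Psmc6 was at 35.9, 33.2 and 34.7 FPKM in sham LV and 35.2, 34.7 and 40.1 in VO LV, and 34.3, 37.6 and 35.2 in sham RV and 36.9, 33.9 and 33.1 in VO RV. Psmc3 was thus higher in sham LV than in sham RV without overlap, and Psmc6 overlapped among all 4 groups. Of the subunits of the base that are not ATPases, the ubiquitin receptor Psmd4 was highest, at 81.9, 102 and 79.9 FPKM in sham LV and 74.9, 69.3 and 77.7 in VO LV, and 65.2, 74.96 and 76.8 in sham RV and 79.3, 68.2 and 84.6 in VO RV. Scaffold subunit Psmd1 was lowest on average and is given with the comparisons below.

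Among the lid genes found by the rule, Psmd13 was highest, at 75.7, 92.5 and 70.8 FPKM in sham LV and 71.9, 71.0 and 75.04 in VO LV, and 62.2, 71.8 and 72.7 in sham RV and 70.9, 63.4 and 75.5 in VO RV. Shfm1, a subunit outside the rule, was higher, with a mean of 122 FPKM over all libraries. The lowest was the deubiquitinase Psmd14, which cuts ubiquitin chains from the substrate, at 24.3, 26.2 and 24.0 FPKM in sham LV and 23.3, 20.3 and 25.0 in VO LV, and 22.0, 21.9 and 22.9 in sham RV and 23.5, 24.9 and 22.4 in VO RV. Psmd13 overlapped among the groups, and Psmd14 was higher in each sham LV library than in each sham RV library.

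The chaperones that assemble the base (Psmd5, Psmd9 and Psmd10) are not part of the finished particle and had lower levels. Psmd9 was at 19.7, 23.1 and 19.9 FPKM in sham LV and 16.9, 19.4 and 19.1 in VO LV, and 19.1, 14.8 and 20.4 in sham RV and 16.7, 15.7 and 17.4 in VO RV. Psmd10 was lowest of the tested genes, at 2.11, 1.88 and 3.02 FPKM in sham LV and 1.88, 1.38 and 2.01 in VO LV, and 1.61, 2.01 and 2.69 in sham RV and 1.41, 1.49 and 1.62 in VO RV, which is only 11 to 22 reads per library. Psmd10 is therefore known with less precision than the others. Among the chaperones of the 20S core, Psmg1 was highest on average (30.7 to 42.02 FPKM) and Psmg2 lowest (13.6 to 19.7 FPKM), and the groups overlapped in both. Psmf1, which encodes the inhibitor PI31, ranged from 20.6 to 28.2 FPKM with all groups overlapping, and Psmc3ip from 14.5 to 21.2 FPKM.

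To learn whether the normal neonatal LV and RV differ in these genes, sham LV was compared with sham RV in 1 limma model of the 4 groups on log2(FPKM + 0.5). A differentially expressed gene (DEG) needed a Benjamini-Hochberg adjusted p under 0.05 over the 13910 tested genes and a fold change over 1.3. Psmb7 was the only DEG among the 42 genes, and 3.86% of all tested genes were DEGs in this comparison. The mean level of Psmb7 (ENSRNOG00000011732, chromosome 3, 22871105 to 22952063, minus strand) was 64.0 ± 4.32 FPKM over the sham LV libraries and 43.4 ± 3.11 FPKM over the sham RV libraries (SD, n = 3). Its level was 1.47 times higher in sham LV, with a log2 fold change of 0.56 (SE 0.09) and a limma adjusted p of 0.0319. Each sham LV library lay above each sham RV library, and the exact two-sided permutation test gave p = 0.10, the smallest that 3 against 3 libraries allow. The log2 fold change of Psmb7 lay between 0.50 and 0.59 with each library left out. The limma adjusted p, however, was 0.0709 without sham LV replicate 1, 0.107 without sham LV replicate 2, 0.122 without sham RV replicate 1, 0.101 without sham RV replicate 2, 0.0504 without VO LV replicate 2, and 0.0714 without sham RV replicate 1 and VO RV replicate 2 together. With the replicate number as a block the limma adjusted p was 0.0741, and with all genes above 0 FPKM kept it was 0.0616.

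The other catalytic subunits were not DEGs. Psmb6 did not overlap between sham LV and sham RV and had a log2 fold change of 0.23 (SE 0.14, limma adjusted p = 0.314). In Psmb5 the groups overlapped, with a log2 fold change of 0.13 (SE 0.12, limma adjusted p = 0.525). Whether Psmb7 differed from the other catalytic subunits in its fold change was not tested.

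At an unadjusted p under 0.05, 10 of the 42 genes were higher in sham LV and 4 were lower, against 12.5% and 13.2% of all tested genes. The 10 genes were the core subunits Psma2, Psma7, Psmb3, Psmb4 and Psmb7, the base and lid subunits Psmc3, Psmd4 and Psmd8, the activator Psme2 and the core chaperone Psmg3. The share of higher genes was above that of all genes and the share of lower genes close to it, and none but Psmb7 passed after adjustment. With each library's trend on gene length removed, 4 genes were higher and 4 lower, so the excess of higher genes was not present in that fit. The 14 genes at this threshold became 9 without sham LV replicate 2, 7 without sham RV replicate 1, 9 without sham RV replicate 2, and 9 without sham RV replicate 1 and VO RV replicate 2 together. After Psmb7, the smallest p among the higher genes was that of Psmc3, at 116 ± 14.9 FPKM in the sham LV libraries and 93.0 ± 4.45 FPKM in those of sham RV (SD, n = 3), with a log2 fold change of 0.31 (SE 0.10, limma adjusted p = 0.0793).

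The 4 lower genes were Psme4, Psmd1, Psmd11 and Psmd3. Psme4 encodes PA200, a large activator that binds the end of the core in place of the 19S particle. It was at 16.7, 22.0 and 21.6 FPKM in sham LV and 22.2, 27.0 and 27.4 in VO LV, and 26.7, 27.6 and 25.8 in sham RV and 24.0, 25.3 and 21.4 in VO RV. Sham LV lay below sham RV without overlap, with a log2 fold change of −0.41 (SE 0.12, limma adjusted p = 0.0719). Psmd1 was at 37.0, 32.6 and 42.3 FPKM in sham LV and 45.9, 43.3 and 60.7 in VO LV, and 51.0, 48.8 and 44.2 in sham RV and 45.2, 44.6 and 39.6 in VO RV. Lid subunit Psmd11, which helps to hold the lid on the base, was at 20.6, 20.6 and 22.9 FPKM in sham LV and 24.5, 25.5 and 29.0 in VO LV, and 26.2, 26.4 and 23.6 in sham RV and 24.1, 24.5 and 21.4 in VO RV. On average sham LV was the lowest group for both, and neither overlapped with sham RV. Their log2 fold changes were −0.37 (SE 0.13, limma adjusted p = 0.121) and −0.25 (SE 0.09, limma adjusted p = 0.131).

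**Figure D2:**
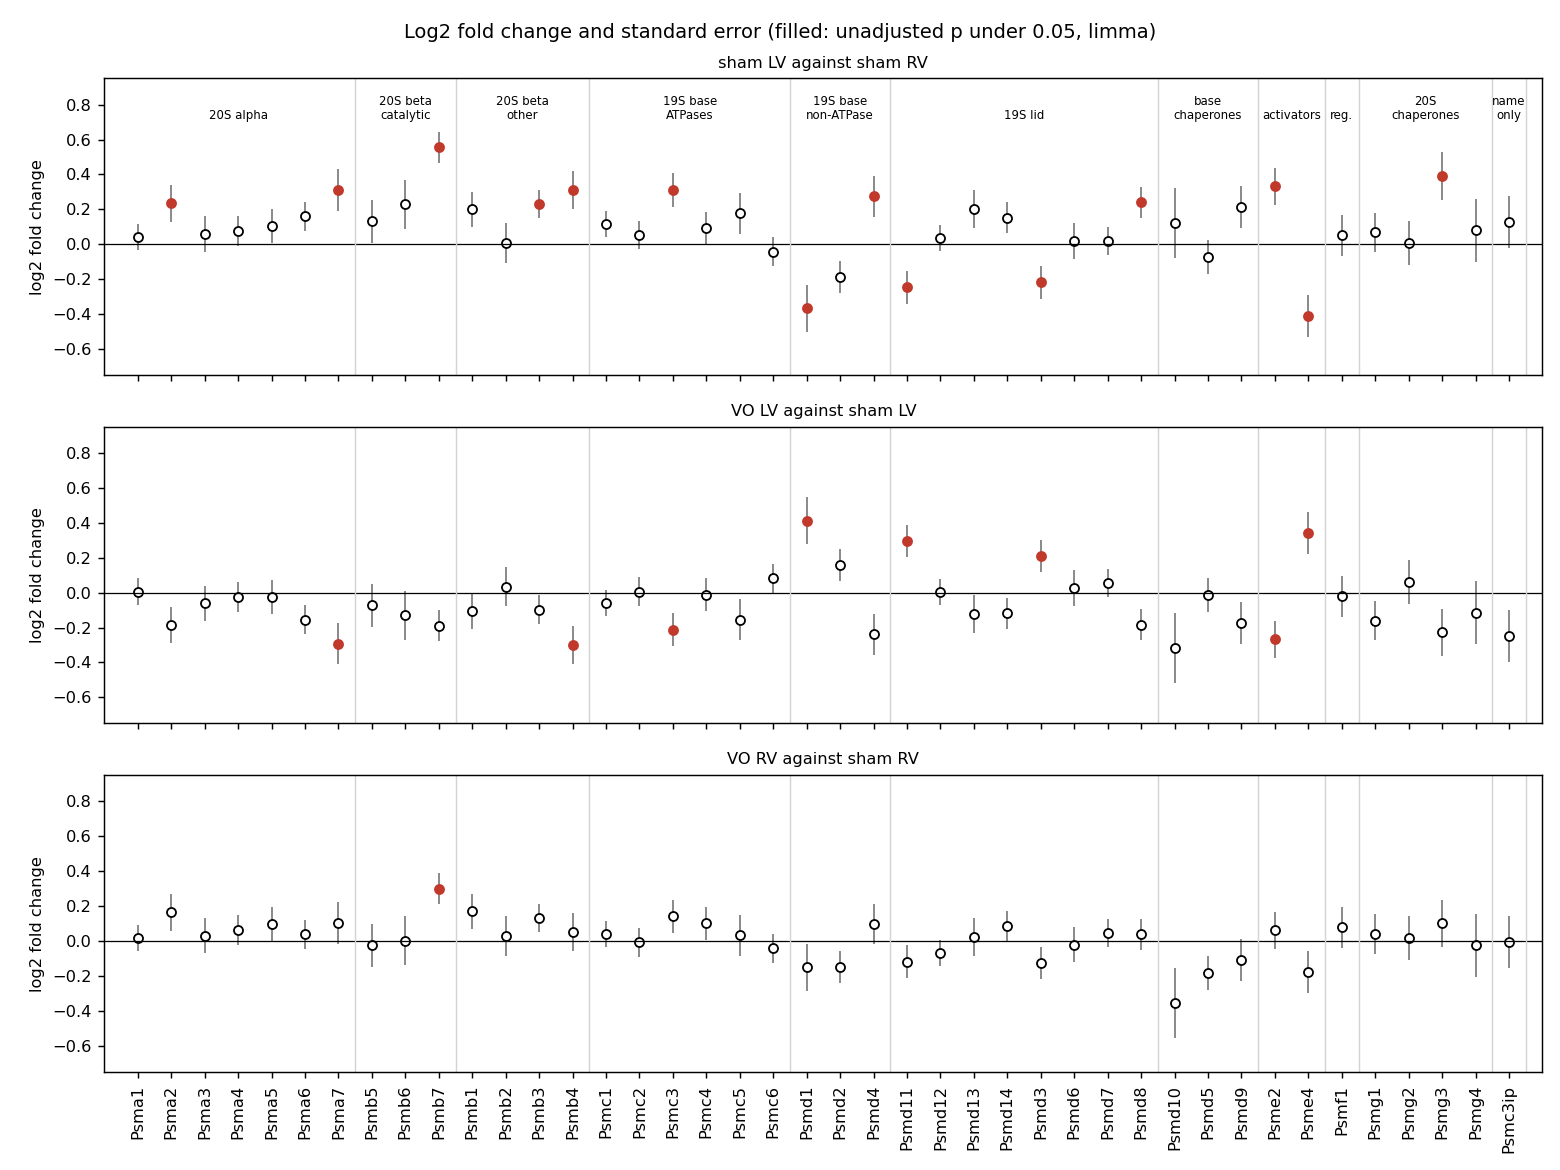
Log2 fold change with its standard error for the 42 tested genes in 3 comparisons, ordered by role, with filled points for an unadjusted limma p under 0.05. In the sham comparison all 14 core genes lie above 0, and Psmb7 is highest at 0.56. Psmd1, Psmd11, Psmd3 and Psme4 lie below 0 there and above 0 in VO LV against sham LV.

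By role, all 14 tested 20S core genes had a positive log2 fold change in sham LV against sham RV, with a median of 0.18, and 12 of 17 genes of the 19S particle had one, with a median of 0.05. Over the 42 genes, 35 were positive with a median of 0.11, against 51.6% positive and a median of 0.01 over all tested genes. Summed levels of the 16 Psma and Psmb genes were 1671 ± 49.7 FPKM in sham LV and 1509 ± 29.3 in VO LV, and 1446 ± 32.0 in sham RV and 1532 ± 158 in VO RV (SD, n = 3), and those of the 17 genes of the 19S particle were 1044 ± 38.5 in sham LV and 1023 ± 70.8 in VO LV, and 989.7 ± 24.6 in sham RV and 994 ± 47.1 in VO RV. The ratio of the core sum to the 19S sum was 1.60, 1.59 and 1.61 in sham LV and 1.53, 1.51 and 1.39 in VO LV, and 1.47, 1.44 and 1.47 in sham RV and 1.56, 1.44 and 1.62 in VO RV. Sham LV and sham RV did not overlap in this ratio, while VO LV overlapped with sham RV and VO RV overlapped with both sham groups. Shfm1 and Adrm1 are not in the 19S sum, and the ratio was not computed with them. Shfm1 was at 123, 193 and 140 FPKM in sham LV and 101, 88.3 and 119 in sham RV, higher in sham LV without overlap. The ratio and its difference between the sham groups therefore hold for these 17 genes only.

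**Figure D3:**
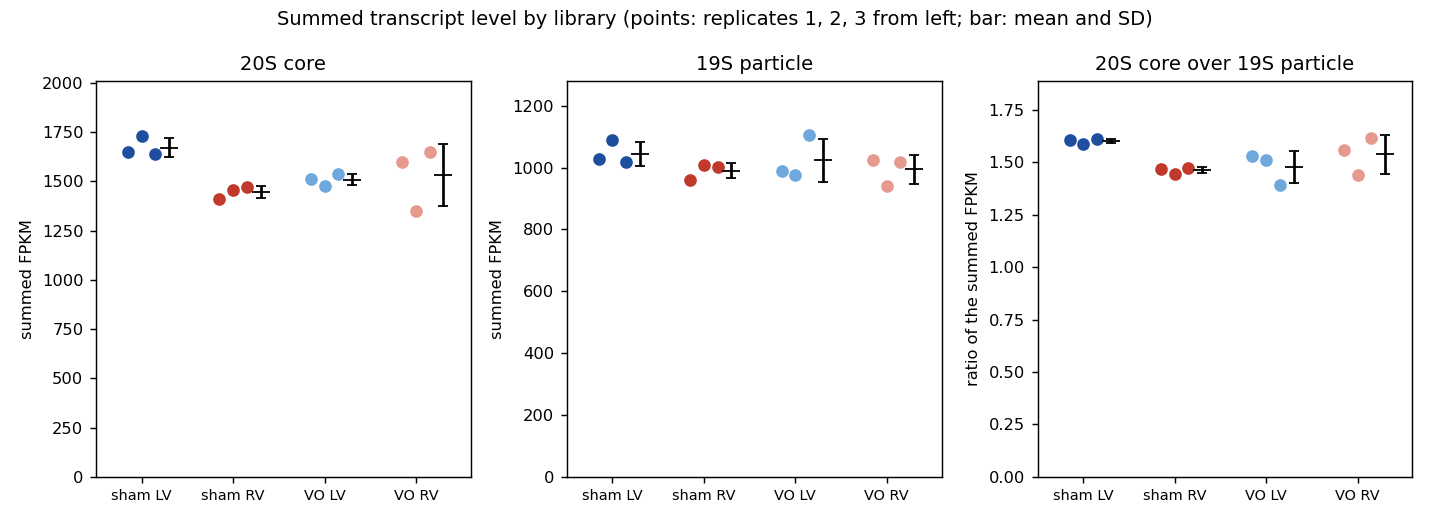
Summed FPKM of the 20S core and of the 17 genes of the 19S particle found by the rule, and their ratio. Each library is 1 point, and the mean and SD of each group are a bar. Core sums were 1638 to 1728 in sham LV and 1411 to 1473 in sham RV, and the 19S sums of all groups lay between 940.2 and 1105.

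Gene length moved with these differences. The 42 genes had a median listed length of 1352 bases, against 2166 bases for all tested genes. All 25 genes under 1500 bases had a positive log2 fold change in sham LV against sham RV (median 0.13), while 1 of the 5 genes over 2500 bases had one (median −0.25). Those 5 were Psma3, Psmd1, Psmd2, Psmd11 and Psme4. Over all tested genes, the Spearman correlation of log2 fold change with length was −0.23, and over the 42 genes it was −0.49. Genes share libraries and their composition, so these correlations are descriptions across genes. With the length trend of each library removed, the median of the 42 genes was 0.02 in place of 0.11, 9 of 14 core genes were positive with a median of 0.08, and 8 genes in place of 14 were at an unadjusted p under 0.05. Psmb7 kept a log2 fold change of 0.52 (limma adjusted p = 0.0361), and that of Psme4 was −0.29 (limma adjusted p = 0.146).

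**Figure D4:**
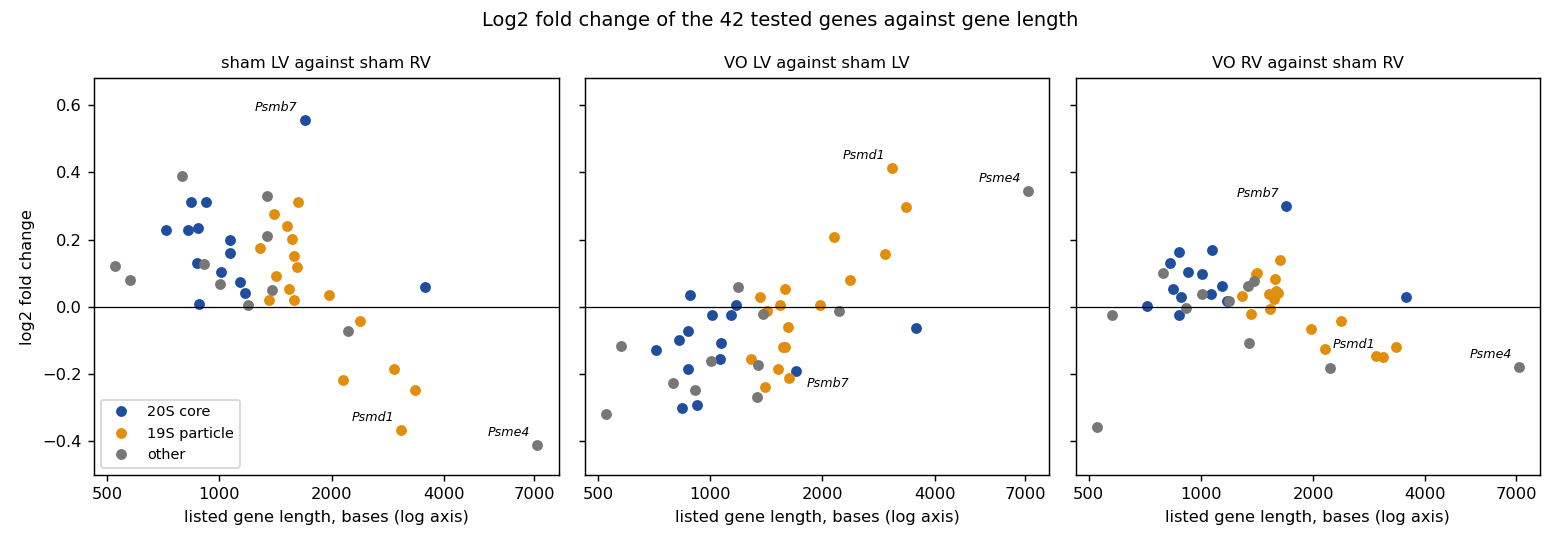
Log2 fold change of the 42 tested genes against listed gene length in bases on a log axis, in 3 comparisons, with the 20S core, the 19S particle and the other genes in separate colours. Short genes lie above 0 in the sham comparison and mostly below 0 in VO LV against sham LV, and Psme4, at 7130 bases, is the longest gene.

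Markers of other cells also differed between the sham ventricles. The summed level of 4 endothelial markers was 297 to 319 FPKM in sham LV against 221 to 241 FPKM in sham RV, and that of 6 lymphocyte markers was 4.18 to 6.31 FPKM against 2.13 to 2.97 FPKM. The ventricular cardiomyocyte markers summed to 25182 to 26496 FPKM in sham LV against 21510 to 25144 FPKM in sham RV, and the atrial, macrophage, fibroblast, smooth muscle and erythroid sums overlapped. The part of these differences in those of the proteasome genes was not tested, and in bulk tissue fewer cells of a type and less RNA per cell cannot be told apart.

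VO LV was compared with sham LV to ask how the overloaded LV differs from its control. No proteasome gene was a DEG by limma on FPKM or by limma voom on the recovered reads, and 0.0935% of all tested genes were by the first. At an unadjusted p under 0.05, 4 of the 42 genes were higher in VO LV and 4 lower, against 12.9% and 10.6% of all tested genes, so these shares were close to the background. These 8 genes became 5 without sham LV replicate 1, 3 without sham LV replicate 2, 3 without VO LV replicate 2 and 2 without VO LV replicate 3, and with the length trend removed they were 3 higher and 0 lower. The higher genes were Psmd11, Psmd1, Psme4 and Psmd3, and the lower genes were Psmb4, Psme2, Psma7 and Psmc3. Since the same sham LV libraries enter this comparison and the previous one, opposite signs in these are partly built in.

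The 3 smallest p values belonged to the higher genes. Psmd11 had a log2 fold change of 0.30 (SE 0.09, limma adjusted p = 0.105), Psmd1 one of 0.41 (SE 0.13, limma adjusted p = 0.111) and Psme4 one of 0.34 (SE 0.12, limma adjusted p = 0.131). In all 3 genes the VO LV libraries lay above the sham LV libraries, and the exact permutation p was 0.10. VO LV replicate 3 was the highest library for Psmd1 and Psmd11, and without it the log2 fold changes were 0.27 for Psmd1, 0.23 for Psmd11 and 0.29 for Psme4, with limma adjusted p of 0.376, 0.368 and 0.388. For Psme4 the log2 fold change was lowest, at 0.22, without sham LV replicate 1. Among the lower genes, Psmb4 had a log2 fold change of −0.30 (SE 0.11, limma adjusted p = 0.139), which became −0.17 without sham LV replicate 2.

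For the catalytic subunits, Psmb7 was at 55.9 ± 1.32 FPKM in VO LV against 64.0 ± 4.32 FPKM in sham LV (SD, n = 3). The VO LV libraries lay below the sham LV libraries, with a log2 fold change of −0.19 (SE 0.09, limma adjusted p = 0.219). Psmb6 had a log2 fold change of −0.13 (SE 0.14, limma adjusted p = 0.604) and Psmb5 one of −0.07 (SE 0.12, limma adjusted p = 0.753), with overlapping groups. Of the 14 core genes, 12 had a negative log2 fold change (median −0.10), and of the 17 genes of the 19S particle 8 had one (median 0.01). Over all tested genes, 7345 of 13910 had a negative log2 fold change. The median over the 42 genes was −0.09, against −0.02 over all tested genes. With the length trend removed the median of the 42 genes was −0.03, and 9 of 14 core genes were negative. Among the other markers, VO LV lay below sham LV without overlap in the summed level of the fibroblast (1813 to 2247 against 2375 to 2475 FPKM), macrophage (38.0 to 41.0 against 42.2 to 46.6 FPKM), endothelial (252 to 282 against 297 to 319 FPKM) and lymphocyte lists (2.58 to 3.97 against 4.18 to 6.31 FPKM), and the part of this in the values above was not tested.

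In the RV, VO was compared with sham in the same model. No proteasome gene was a DEG by limma or by limma voom, and neither was any other gene by limma (0% of the tested genes). At an unadjusted p under 0.05, 1 of the 42 genes was higher and 0 were lower, against 3.46% and 4.94% of all tested genes. The gene was Psmb7, at 53.5 ± 4.71 FPKM in VO RV and 43.4 ± 3.11 FPKM in sham RV (SD, n = 3). Each VO RV library lay above each sham RV library, with a log2 fold change of 0.30 (SE 0.09, limma adjusted p = 0.541). Counts at this threshold were 2 without sham RV replicate 1, 2 without sham RV replicate 2, 2 without sham RV replicate 3 and 6 without VO RV replicate 2.

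The next 2 genes by p were assembly chaperones of the base. Psmd5 was at 9.99, 11.2 and 9.85 FPKM in sham LV and 10.1, 10.4 and 10.2 in VO LV, and 12.3, 10.6 and 9.88 in sham RV and 10.1, 9.55 and 8.91 in VO RV, and its log2 fold change in the RV was −0.18 (SE 0.10, limma adjusted p = 0.632). Psmd10 had one of −0.36 (SE 0.20, limma adjusted p = 0.639) on few reads. In both genes VO RV and sham RV overlapped, and the values became −0.10 for Psmd5 without sham RV replicate 1 and −0.20 for Psmd10 without sham RV replicate 3. Psme4, the long activator gene, had a log2 fold change of −0.18 in the RV (SE 0.12, limma adjusted p = 0.688), with each VO RV library below each sham RV library. Psmd1 (−0.15, SE 0.13) and Psmd11 (−0.12, SE 0.09) overlapped between the groups, with limma adjusted p of 0.763 and 0.727. Without VO RV replicate 3 the values were −0.11 for Psme4, −0.09 for Psmd1 and −0.06 for Psmd11. Psmb5 (−0.03, SE 0.12) and Psmb6 (0.00, SE 0.14) overlapped as well, with limma adjusted p of 0.967 and 0.998. Over the 42 genes, 27 had a positive log2 fold change (median 0.03, against 0.00 over all tested genes), among them 13 of the 14 core genes (median 0.06). Of all tested genes, 50.6% had a positive one. The median over the 42 genes lay between −0.01 and 0.10 with each library left out and was 0.00 with the length trend removed, so its sign was not stable. Smooth muscle markers summed to 209 to 337 FPKM in VO RV against 144 to 205 FPKM in sham RV, without overlap, and macrophage markers to 41.1 to 68.2 FPKM against 35.5 to 42.5 FPKM, with overlap, and their part was not tested.

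**Figure D5:**
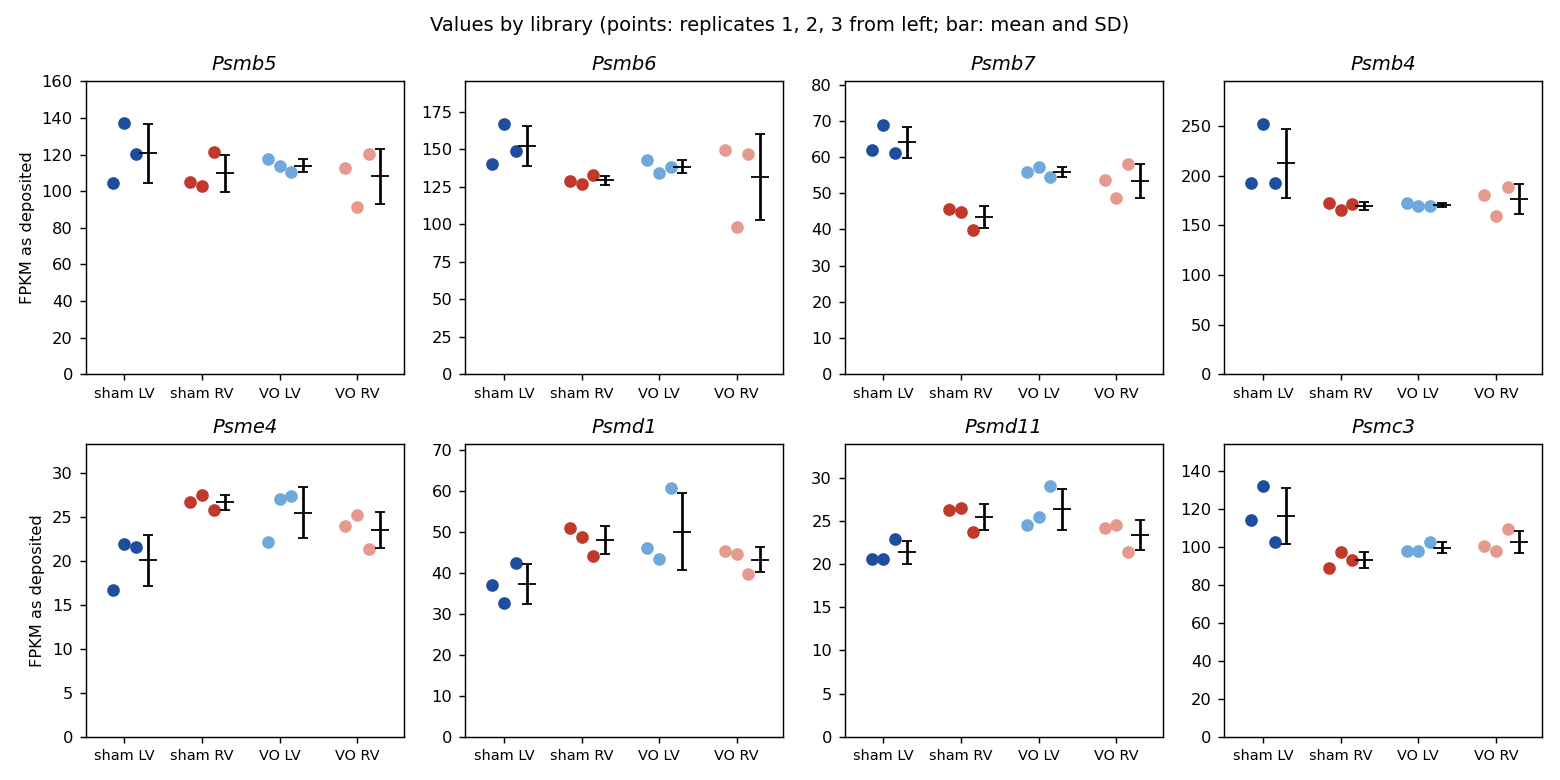
FPKM of 8 genes in each library, with the points of each group in the order of replicates 1, 2 and 3 and the mean and SD as a bar. In Psmb7 the sham LV libraries (61.1 to 68.98) and the sham RV libraries (39.8 to 45.6) lie on either side of the VO libraries, and in Psme4 the order of the sham groups is turned around.

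The overloaded ventricles were then compared with each other. Between VO LV and VO RV no proteasome gene was a DEG by limma or by limma voom, and 0.00719% of all tested genes were. At an unadjusted p under 0.05, 0 genes were higher and 0 lower in VO LV, by either tool, against 6.15% and 5.25% of all tested genes by limma. The smallest p was that of Psmd11, with a log2 fold change of 0.17 (SE 0.09, limma adjusted p = 0.519). Psmd12, a lid subunit, was at 45.5, 44.6 and 45.8 FPKM in sham LV and 44.8, 42.4 and 49.2 in VO LV, and 43.5, 44.6 and 44.4 in sham RV and 40.4, 41.99 and 43.9 in VO RV, with a log2 fold change of 0.11 (SE 0.07, limma adjusted p = 0.607), and Psmd1 had one of 0.20 (SE 0.13, limma adjusted p = 0.608). Without VO LV replicate 3 the log2 fold changes were 0.10 for Psmd11, 0.05 for Psmd12 and 0.05 for Psmd1. The VO groups overlapped in all 3 genes. Psmb7, which separated the sham ventricles, overlapped between the VO ventricles, at 54.6 to 57.2 FPKM in VO LV and 48.7 to 58.1 FPKM in VO RV. Without overlap, VO LV lay above VO RV in the summed ventricular cardiomyocyte markers (25683 to 28341 against 17778 to 25578 FPKM) and below it in the fibroblast (1813 to 2247 against 2288 to 4371 FPKM) and macrophage markers (38.0 to 41.0 against 41.1 to 68.2 FPKM), and their part in these values was not tested.

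Whether the ventricles responded differently to VO was tested as the LV response minus the RV response in the same model. No proteasome gene was a DEG by limma, while 4.19% of all tested genes were, and by limma voom on the recovered reads 1 was, Psmb7. At an unadjusted p under 0.05, 5 of the 42 genes had a positive difference and 5 a negative one, against 14.3% and 11.2% of all tested genes. The positive genes were Psmd11, Psme4, Psmd1, Psmd3 and Psmd2, and the negative genes were Psmb7, Psmc3, Psma2, Psma7 and Psmb4. These 10 genes became 5 without sham RV replicate 1, 4 without VO RV replicate 3, 5 without VO LV replicate 3 and 5 with the length trend removed (3 positive and 2 negative). Without VO RV replicate 2, the library of high atrial markers, they became 15, of which 3 were positive and 12 negative, and 2 were DEGs, Psmb7 and Psma7 (limma adjusted p = 0.0489 for Psma7). VO RV replicate 2 also had the lowest ventricular cardiomyocyte sum of all libraries (17778 FPKM). Its fibroblast (4371 FPKM), macrophage (68.2 FPKM) and smooth muscle sums (337 FPKM) were the highest.

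Psmb7 had the smallest p, with a difference of −0.49 on the log2 scale (SE 0.12, limma adjusted p = 0.0514), just outside the threshold. Its limma adjusted p was 0.0365 without VO RV replicate 2, which is the only library whose removal brought it inside, 0.0722 without sham RV replicate 1 and VO RV replicate 2 together, and 0.132 without VO LV replicate 3. Psmd11 had a difference of 0.42 (SE 0.13, limma adjusted p = 0.0898), Psme4 one of 0.52 (SE 0.17, limma adjusted p = 0.0949) and Psmd1 one of 0.56 (SE 0.19, limma adjusted p = 0.105). In Psmb7 each VO library lay below each sham library in the LV and above each sham library in the RV, a pattern that 1.36% of all tested genes had. Psme4 had the reverse pattern, above sham in the LV and below it in the RV, which 3.37% of all tested genes had. No other of the 42 genes had either pattern.

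Across the 12 libraries the subunits varied together to unequal degrees, described here on the log2 scale with no test since all genes share the libraries. The median Pearson correlation was 0.46 over the 91 pairs of core genes and 0.23 over the 136 pairs of genes of the 19S particle. Psma6, an alpha ring subunit, was the gene most like the mean of the other 41 (r = 0.88). Psme4 (r = −0.54), Psmd11 (r = −0.44) and Psmd1 (r = −0.37) went against it. Psmd5 (r = −0.21), Psmd2 (r = −0.16) and Psmd3 (r = −0.07) were also negative. The length trend of the libraries was not removed for these correlations, and pairs of other genes were not examined.

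Related genes of the pathway were counted from a list of 35 symbols, of which 31 matched a tested gene. In sham LV against sham RV, 2 of the 31 were higher and 4 lower at an unadjusted p under 0.05, against 12.5% and 13.2% of all tested genes, so the share of lower genes was close to the background. The higher genes were Psmb10 (log2 fold change 0.64, SE 0.25, limma adjusted p = 0.142) and the subunit Shfm1 (0.55, SE 0.17, limma adjusted p = 0.0820). For Shfm1 the log2 fold change lay between 0.36 and 0.69 with each library left out. The counts became 1 higher and 3 lower without sham RV replicate 1 or 2, and 4 higher and 7 lower with array weights. DEGs among the 31 were Nfe2l1 and Nploc4, against 3.86% of all tested genes. Nfe2l1, the transcription factor named above, was at 26.0, 15.9 and 31.4 FPKM in sham LV and 48.6, 51.0 and 61.4 in VO LV, and 64.3, 49.3 and 46.2 in sham RV and 42.5, 45.03 and 23.2 in VO RV. Nploc4, a cofactor of the unfolding ATPase Vcp that hands ubiquitinated proteins to the proteasome, was at 12.6, 10.8 and 13.1 FPKM in sham LV and 15.8, 18.7 and 23.2 in VO LV, and 18.8, 19.7 and 18.3 in sham RV and 15.5, 16.1 and 13.0 in VO RV. For both genes sham LV lay below sham RV and below VO LV without overlap.

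Nfe2l1 had a lower level in LV than in RV after sham, with a log2 fold change of −1.15 (SE 0.28, limma adjusted p = 0.0459), and Nploc4 had one of −0.62 (SE 0.14, limma adjusted p = 0.0387). In VO LV against sham LV, 8 of the 31 genes were higher and 0 lower at an unadjusted p under 0.05, namely Nfe2l1, Nploc4, Vcp, Usp14, Nfe2l2, Uba1, Rad23b and Ube3c, against 12.9% and 10.6% of all tested genes. The 8 became 2, Nfe2l1 and Nploc4, without VO LV replicate 3 and 4 without sham LV replicate 2, and without sham LV replicate 1 they were 8 higher and 4 lower. None of the 8 was a DEG by limma on FPKM, while limma voom on the recovered reads called Nfe2l1 (log2 fold change 1.19, limma voom adjusted p = 0.0409) and Nploc4 (0.65, limma voom adjusted p = 0.0386). Here the log2 fold change was 1.17 for Nfe2l1 (SE 0.28, limma adjusted p = 0.0612) and 0.63 for Nploc4 (SE 0.14, limma adjusted p = 0.0544). The LV response exceeded the RV response by 1.73 for Nfe2l1 (SE 0.39, limma adjusted p = 0.0384) and by 0.97 for Nploc4 (SE 0.19, limma adjusted p = 0.0312), and these were the 2 DEGs of the list in that comparison, against 4.19% of all tested genes. Without sham RV replicate 1 and VO RV replicate 2 together, the limma adjusted p of the LV and RV difference was 0.0811 for Nfe2l1 and 0.0722 for Nploc4, and that of the sham comparison was 0.143 and 0.119. In the sham comparison Nfe2l1 lost its call without any of 9 libraries, with limma adjusted p from 0.0501 (VO RV replicate 1) to 0.166 (sham RV replicate 1), and kept it without sham LV replicate 3, VO RV replicate 2 or VO RV replicate 3. Nploc4 lost it without sham LV replicates 1 or 2, any sham RV replicate or VO LV replicate 2, with limma adjusted p from 0.0582 to 0.138. In the difference of responses the highest limma adjusted p, without VO LV replicate 3, was 0.112 for Nfe2l1 and 0.0848 for Nploc4. VO RV against sham RV had 0 higher and 1 lower gene of the 31, Nploc4, against 3.46% and 4.94% of all tested genes, and VO LV against VO RV had 2 higher, Nfe2l2 and Nploc4, against 6.15%. The first count became 0 without sham RV replicates 1 or 2 or VO RV replicate 3, 2 without sham LV replicate 2 or VO RV replicate 2 and 4 without VO RV replicate 1. The second became 0 without VO LV replicate 3 or VO RV replicate 3, 1 without VO LV replicate 1, 4 without VO RV replicate 2 and 6 without VO RV replicate 1. Whether the level of Nfe2l1 is linked to that of any proteasome gene was not tested.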

How the data were processed

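The authors purified poly(A) RNA from total RNA, sequenced 12 myocardial libraries and deposited FPKM values per gene in 1 table, with gene positions and lengths and with a scaling between libraries that is not described; the submitters' processing notes name HISAT2 2.0.5, StringTie 1.3.3b, featureCounts 1.5.0-p3, DESeq2 1.20.0 and GATK 3.7. The genome build and the strand setting of the counting are not given in the sources used here, so reads of overlapping or antisense genes cannot be told apart. The product of FPKM and gene length, in units of what 1 read is worth in each library (found from the low values), gave whole reads (within 0.02 of a read, for values under 200 reads) for 100% of the values, and these reads gave the depth, which limits genes of few reads such as Psmd10.

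Groups were taken from the labels. FPKM were divided by size factors (1.0018 to 1.0071), and genes averaging at least 0.5 FPKM over all libraries (13910) were fitted by group on the scale log2(value + 0.5) with limma 3.58.1 (R 4.3.3; trended empirical Bayes, Benjamini-Hochberg adjustment). Fold changes on this scale understate the change of low genes. Exact permutation tests used scipy 1.17.1 (Python 3.11.15). Scripts were tested on simulated data. Alternatives were other scalings, pseudocounts, filters and sample sets, the replicate number as a block, each library's trend on gene length removed (lowess, span 0.3), limma voom on the recovered reads, array weights and each library left out; leaving out sham RV replicate 1 and VO RV replicate 2 together was chosen after seeing the data. Genes named with tests were those at an unadjusted p under 0.05 or the 3 smallest p in a comparison, the 3 catalytic subunits, and Psme4, Psmd1 and Psmd11 in the RV; levels are given for the highest and lowest gene of each role. The members and lists were chosen with earlier results of these data known.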

Additional observations from a re-analysis of the deposited data

Results flagged for a closer look

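In 2 proteasome genes every VO library lay to one side of every sham library in the LV and to the other side in the RV. For Psmb7, the trypsin-like subunit, the LV response minus the RV response was −0.49 on the log2 scale (VO below sham in the LV and above sham in the RV, n = 3 per group). For Psme4, the activator PA200, it was 0.52, with VO above sham in the LV and below sham in the RV. The difference itself was tested in the model of the 4 groups and did not pass in either gene in the model as reported, with limma adjusted p of 0.0514 for Psmb7 and 0.0949 for Psme4. For Psmb7 it passed in 5 alternatives, with limma adjusted p of 0.0422 after quantile normalization, 0.0484 with a mean of at least 1 FPKM, 0.0461 by limma voom, 0.0331 with array weights and 0.0365 without VO RV replicate 2, and was 0.0722 without sham RV replicate 1 and VO RV replicate 2 together. It did not pass in the other alternatives, among them the replicate block, the length trend removed and all genes above 0 FPKM kept. The first pattern was present in 1.36% and the second in 3.37% of all 13910 tested genes, so 2 of 42 genes is near the background share.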

How the results depend on the processing

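Of 1142 recomputed values of single proteasome genes, 1110 kept their direction and their side of the threshold, 8 passed it anew, 8 lost it (all Psmb7 in sham LV against sham RV) and 16 changed sign. Only Psmb7 in sham LV against sham RV was a DEG in the model as reported. Most values that kept their side were thus of tests that were not DEGs, and their number says little about that call. Nfe2l1 and Nploc4 are not in this tally. The DEG count in sham LV against sham RV (1, Psmb7) was 0 with all genes above 0 FPKM kept, 0 with the replicate block, 0 without sham RV replicate 1 and VO RV replicate 2 together (chosen after seeing the data), 2 with array weights and 0 to 2 with each library left out (2 without sham LV replicate 3). For the difference of responses the DEG count (0) was 1 with quantile normalization, 1 with a mean of at least 1 FPKM, 1 with limma voom, 1 with array weights and 0 to 2 with each library left out. Counts at an unadjusted p under 0.05 moved as follows. With the length trend removed they were 8 in place of 14 (sham LV against sham RV), 3 in place of 8 (VO LV against sham LV), 2 in place of 1 (VO RV against sham RV) and 5 in place of 10 (difference), and the sham count was 9 without the 2 RV libraries. With all genes above 0 kept they were 2 in VO RV against sham RV and 1 in place of 0 in VO LV against VO RV, and with array weights 2 in VO RV against sham RV. With each library left out they ranged from 7 to 17, 2 to 10, 1 to 6 and 4 to 15 in the 4 comparisons of the order above. The replicate numbers did not pair the libraries (correlations of same-numbered deviations from −0.22 to 0.12), and with the replicate block the counts were 5 in VO LV against sham LV and 6 for the difference. Small log2 fold changes of Psmb5 and Psmb6 changed sign. Psmb5 was −0.0022 in sham LV against sham RV with the length trend removed, and in VO LV against sham LV it was 0.020 with that trend removed, 0.013 with array weights and −0.17 to 0.023 with each library left out. In VO RV against sham RV, Psmb5 was 0.042 with array weights, 0.059 without the 2 RV libraries and −0.10 to 0.088 with each left out, and Psmb6 was −0.00051 on FPKM as deposited, −0.068 with the length trend removed and −0.10 to 0.20 with each left out. The cause of these changes was not tested. Depth limits Psmd10 (11 to 22 reads per library) and the 3 untested genes.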

Other observations

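The inducible catalytic subunits of the immunoproteasome, which replace Psmb5, Psmb6 and Psmb7 in immune cells and under interferon, were lower than their constitutive partners in every library. Psmb10 was at 14.4, 32.5 and 16.8 FPKM in sham LV, 12.2, 12.2 and 13.4 in sham RV, 14.8, 15.2 and 12.3 in VO LV and 14.2, 11.6 and 18.1 in VO RV. Psmb9 ranged from 2.87 to 6.37 FPKM and Psmb8 from 0.325 to 2.03 FPKM. The summed level of the 3 genes was 15.8 to 40.9 FPKM, and sham LV replicate 2, which also had the highest lymphocyte (6.31 FPKM) and erythroid marker sums (4796 FPKM) and the lowest array weight (0.446) of the 12 libraries, was the highest library for all 3.

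Pomp, the maturation factor of the core, was listed at 0.462 to 2.10 FPKM, while LOC100911238, which the table describes as like it, was listed at 30.7 to 189 FPKM. Reads shared by the copies were not separated here, and both levels are uncertain.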
